A study of Homo sapiens with 27 samples.

Results

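CPSF1 was knocked down in LNCaP95 cells, and the sites at which transcripts of these cells ended were read by Poly(A)-ClickSeq (PAC-seq). LNCaP95 is an established human prostate cancer line that was derived from LNCaP and no longer needs androgen to grow. Of the 27 libraries of the study, the 9 LNCaP95 libraries were chosen by the line and shRNA in their titles: 3 control libraries (CTRL sh) and 3 for each of the knockdown shRNAs, CPSF1 sh1 and CPSF1 sh2. The other 18 libraries came from LNCaP and 22Rv1 cells and are used here only to ask where LNCaP95 differed. Those cultures had puromycin at 2 µg/mL, against 1 µg/mL for LNCaP95, and the paper names phenol red-free medium for LNCaP95 only. Line, dose and medium therefore cannot be told apart in that comparison. All 9 LNCaP95 cultures, controls included, carried a lentiviral shRNA vector, went through 2 rounds of puromycin at 1 µg/mL, and were seeded and grown for 72 h in phenol red-free RPMI with 10% serum. The cells were selected pools rather than clones. Libraries 1 to 3 of a group are described as biological replicates (BR1 to BR3). Nothing in the labels says whether they came from separate infections, so the p-values measure the spread between these libraries. Each library gave raw read counts per gene in 4 tables: 3′ UTRs extended by 300 bases, introns, coding sequence (CDS) and the 10 kb downstream of the gene end. The 4 tables together held 5431900 to 9100287 reads per library, of which 266208 to 507194 were in the 10 kb table.

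As background, CPSF1 is the large scaffold of the factor (CPSF) that directs cleavage and polyadenylation of messages. With WDR33, CPSF4 and FIP1L1 it recognizes the AAUAAA signal near the end of a transcript, and CPSF3 then cuts the RNA so that a poly(A) tail can be added. A site that is not used leaves RNA polymerase II transcribing into the sequence beyond the gene, where a later site can end the transcript. A PAC-seq read ends where the transcript meets its tail. A read in the 10 kb table therefore places an end beyond the gene end of the annotation used for counting. Newer annotation can extend a gene into that region. A read in the intron or CDS table places an end within the span of the gene, though the transcript may be another gene's. Whether some reads were primed on A-rich stretches inside transcripts was not tested.

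The sequences below show where the measured regions lie for the genes that the results turn on. The first set gives forward primers that the study designed against extended transcripts of 4 glycolysis genes, each of which matched hg19 once, on the strand of its gene. They are in lower case throughout, since no part of a primer is singled out.
GPI extended: ctggcaccaaatttcaacaa
ALDOA extended: gcctagctcattcaactctgg
PGK1 extended: cctgtcaccttggatccctt
PFKM extended: gaagagggaaggatggctca
The GPI primer starts 1647 bases beyond the gene end, at chr19:34894708-34894727, and the ALDOA primer 1872 bases beyond it, at chr16:30083613-30083633. The PFKM primer starts 352 bases beyond the end (chr12:48540539-48540558). The PGK1 primer starts only 53 bases beyond it (chrX:77384846-77384865), so an end formed there would be counted in the extended 3′ UTR table and not in the 10 kb table.

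The second set gives 30-base windows of hg19 around the last poly(A) signal hexamer in the final 50 bases of genes with much changed 10 kb reads, read 5′ to 3′ on the strand of the gene with the hexamer in capitals. The first 5 genes gained reads downstream and the last 3 had fewer, 2 of them (BSG and FCHO1) with exons of another gene in the region.
IGFBP3: ttataaatagtaAATAAAgtttttaccatt
FN1: gcctgcaagggaAATAAAaatgactaagat
TYMS: ttcctaaaatagATTAAAgaactctcctta
ATF4: gctgtgtgttccAATAAAttattttgtagg
ORC5: gttgcaaaatatAATAAAtacaagttcttt
BSG: acccaccgccacAATAAAgatcgcccccac
FCHO1: attttctaataaAATAAAaaaggaaacctt
CCDC66: cttgttctatacAATAAAacagatacttct
These windows are at chr7:45951958-45951987 for IGFBP3, chr2:216225184-216225213 for FN1, chr18:673543-673572 for TYMS, chr22:39918655-39918684 for ATF4 and chr7:103766799-103766828 for ORC5. Those of the genes that lost reads are at chr19:583453-583482 for BSG, chr19:17899341-17899370 for FCHO1 and chr3:56655798-56655827 for CCDC66. Both sets hold canonical signals: 7 of these 8 genes have AATAAA, and TYMS has the variant ATTAAA. For GPI, neither hexamer was found in that window, the last 50 bases before its outermost annotated end. This does not show that GPI lacks a signal. The morpholino that the study designed against the canonical GPI poly(A) site is complementary to a sequence with AATAAA. Over all genes tested in the 10 kb table, AATAAA stood in the last 50 bases of 57.2%, against 62.2% of the genes that rose and 49.8% of those that fell in that table.

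CPSF1 itself was lower in the knockdown cells. Its 3′ UTR (chr8:145618150-145618532 with the extension, minus strand) gave 106.6, 71.9 and 119.8 CPM (counts per 1e+06 reads of the table's tested genes, with TMM-adjusted library sizes) in the CTRL sh libraries. It gave 37.3, 38.4 and 54.1 CPM with CPSF1 sh1 and 66.5, 49.5 and 43.5 CPM with CPSF1 sh2. All 6 knockdown libraries were below all 3 controls, and the fitted log2 fold change was -1.05 ± 0.18 (SE; edgeR quasi-likelihood test, Benjamini-Hochberg adjusted p = 0.0003). Its own 10 kb reads did not pass the test (log2 fold change -0.09, adjusted p = 0.93).

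The 10 kb regions took a larger part of the reads after knockdown. They held 3.63%, 3.48% and 3.75% of the reads in the control libraries, 5.10%, 5.80% and 5.44% with CPSF1 sh1, and 7.10%, 6.19% and 6.43% with CPSF1 sh2. The mean rose from 3.62% ± 0.135 (SD, n = 3) to 6.01% ± 0.719 (SD, n = 6), an exact two-sided permutation p of 0.0119, adjusted p 0.0476 over the 4 regions; 0.0119 is the smallest that the 84 ways to choose 3 of 9 libraries allow. The adjusted exact permutation p was 0.148 within replicate numbers and 0.0714 to 0.143 with any 1 library left out, where fewer splits are possible. The 3′ UTR share was 58.2% ± 1.9 in the controls and 54.3% ± 3.57 in the knockdown (adjusted exact permutation p = 0.19). The intron share differed by 0.111 percentage points (adjusted exact permutation p = 1.0) and the CDS share by 1.46 percentage points (adjusted exact permutation p = 0.46), both within the spread of the libraries. The plot of region shares shows that the groups were apart in the 10 kb table only.

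**Figure D1:**
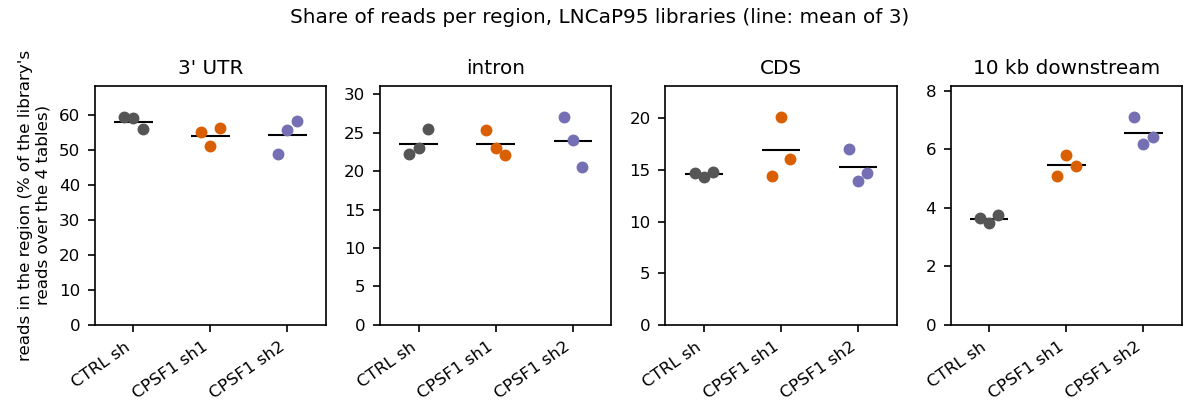
Share of each library's reads (percent of its reads over the 4 tables, vertical axes starting at 0) in the 3′ UTR, intron, CDS and 10 kb downstream tables; points are single libraries and lines are means of 3. In the 10 kb panel the 3 controls sit between 3.48% and 3.75% and the 6 knockdown libraries between 5.10% and 7.10%, while the groups overlap in the other panels.

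The share of reads that a gene had beyond its end, relative to its own 3′ UTR, needs no scaling between libraries. Of 10070 genes with reads in every library, 4032 had a larger 10 kb share in all 6 knockdown libraries than in all 3 controls, which is 40.0% of the genes, and 129 had a smaller one in all 6 (1.28%). The same counts for intron reads against 3′ UTR reads were 500 (5.48%) and 662 (7.25%) of 9126 genes, and for CDS reads 136 (2.97%) and 113 (2.47%) of 4579. In the edgeR test of the ratio, 2148 of 10110 genes moved toward the 10 kb region (21.2%) and 684 away from it (6.77%). This test scales each table by its own total and so measures change beyond the shift common to the 10 kb table.

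Within the 10 kb table, 2606 of 14789 genes tested rose (17.6%) and 1493 fell (10.1%), with a median log2 fold change over all genes of 0.22. These folds are relative to the reads of the 10 kb table. With each library scaled to its reads over all 4 tables, the median was 1.11, and 5259 genes rose and 241 fell. The direction of the lower calls therefore depends on the scaling: of the 1493 genes that fell, 241 (16.1%) still did, 160 (10.7%) had a fold change above 0, and none was called higher. The split of calls was 63.6% higher in the first scaling and 95.6% in the second, and 49.4% when only genes above 2 CPM in every library were tested. A change of RNA per cell and a change in the number of cells cannot be told apart in these bulk samples, which give only relative amounts.

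The gene with the highest 10 kb fold change was IGFBP3, which encodes a binding protein of insulin-like growth factors (10 kb region chr7:45941650-45951649, minus strand). Its 10 kb reads were 3.63, 0 and 0 CPM in the controls, 127, 1681 and 138 CPM with CPSF1 sh1, and 1150, 1397 and 1456 CPM with CPSF1 sh2. With 1 read in the 3 controls together, the ratio of the groups was 803, with a 95% counting interval of 144 to 3.17e+04. All 6 knockdown libraries were far above the controls, but 2 of the CPSF1 sh1 libraries were about an order of magnitude below the other 4. The IGFBP3 3′ UTR rose as well (log2 fold change 2.69 ± 0.54, adjusted p = 0.001), with the same 2 libraries low at 44.1 and 55.4 CPM.

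Several other genes had no read beyond their end in any control. TYMS, the thymidylate synthase of DNA synthesis (chr18:673878-683877), had 0 control reads and 371 knockdown reads, between 72.4 and 197 CPM, which is at least 33.5-fold higher when 3 reads over the controls are taken as the floor. MAGEA3, a cancer-testis antigen, was at least 29.5-fold higher, and CHST2, a carbohydrate sulfotransferase, at least 23.9-fold. ATF4, the transcription factor of the integrated stress response, was at least 22.1-fold higher, and PPIA, a peptidyl-prolyl isomerase often used as a reference transcript, at least 19.5-fold. ORC5 of the origin recognition complex was at least 18.7-fold higher and UQCRC2 of respiratory complex III at least 16.9-fold. In all, 311 of the 2606 genes that rose had no control read and a further 485 had 1 to 3. The median log2 fold change of the genes that rose was 2.34, or 2.09 with those at 0 set to their bound, so it depends on the controls' low counts.

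Genes of androgen signalling and of the prostate lineage were among those with downstream reads. KLK2, a kallikrein protease of the prostate, rose by a log2 fold change of 3.48 ± 0.34 in the 10 kb table, from 52.7 to 605 CPM. FKBP5, a chaperone of steroid receptors, rose from 223 to 925 CPM, PMEPA1 from 14.0 to 244 CPM and ABCC4, an efflux transporter, from 17.0 to 151 CPM. KLK3, which encodes prostate-specific antigen, had 10 kb reads of 424 CPM in the controls and 556 CPM in the knockdown, and did not pass (adjusted p = 0.26). Over all genes tested in the 10 kb table, 17.6% rose and 10.1% fell. Of the 23 androgen response genes tested there, 7 rose and 2 fell, the latter near the share of all genes. Of 11 luminal prostate markers tested there, 6 rose and none fell, with a median log2 fold change of 1.14 against 0.22 over all genes. With libraries scaled to their reads over all tables, 13 androgen response genes rose and 1 fell, and 9 luminal markers rose and none fell.

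**Figure D2:**
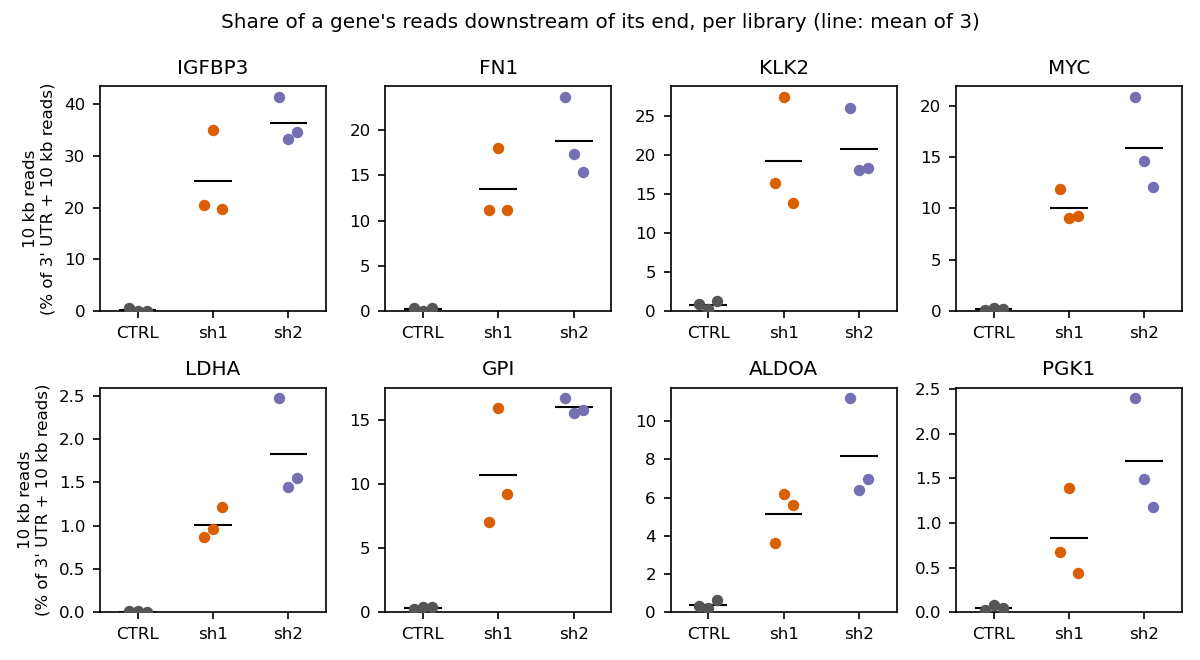
Reads in the 10 kb region as a percent of a gene's 3′ UTR plus 10 kb reads (vertical axes starting at 0), by library for 8 genes; points are libraries and lines are means of 3. Every knockdown library is above every control for these 8 genes, from means of 0.202% to 30.8% for IGFBP3 and of 0.0539% to 1.27% for PGK1.

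MYC, the transcription factor, and FN1, the matrix protein fibronectin, showed the same separation. MYC had 3.63, 29.8 and 7.28 CPM in the 10 kb region in the controls and 384 to 609 CPM in the 6 knockdown libraries. Its log2 fold change was 5.21 ± 0.41 there, while its 3′ UTR reads, 384 CPM in the controls and 402 CPM in the knockdown, did not pass (adjusted p = 0.84). FN1 rose in both tables, by 7.31 ± 0.47 in the 10 kb region and 1.84 ± 0.18 in the 3′ UTR on the log2 scale. ITGB1, an integrin chain that binds fibronectin, rose from 64.4 to 794 CPM in the 10 kb table, and ZNF703, a corepressor, from 21.2 to 985 CPM. SNAI2, a mesenchymal transcription factor, had no control read in its 10 kb region and was at least 5.0-fold higher, and its 3′ UTR rose by 1.47 ± 0.27 on the log2 scale.

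Genes of ribosomes, proteasomes and mitochondria were also described as lists. Over all genes tested in the 10 kb table, 17.6% rose and 10.1% fell. Of 75 cytosolic ribosomal protein genes tested, 29 rose and 4 fell, with a median of 1.22; examples are RPL5 (12 to 324 CPM), RPL37 (21.9 to 320 CPM), RPS23 (27.4 to 324 CPM) and RPL15 (25.1 to 255 CPM). Of 34 proteasome subunit genes, 14 rose and 1 fell, led by PSMC2 of the regulatory particle (5.48 to 204 CPM). Of 75 oxidative phosphorylation genes, 22 rose, COX7C of cytochrome oxidase among them (5.26 to 148 CPM). A further 9 fell, near the share of all genes. Scaled to the 4 tables, 49 of the ribosomal protein genes rose and none fell. In that scaling 19 proteasome genes rose and 1 fell, and 41 oxidative phosphorylation genes rose and 1 fell. HSP90B1, the endoplasmic reticulum member of the HSP90 family, rose from 34.6 to 518 CPM and HSPA8, the constitutive HSP70, from 11.3 to 217 CPM.

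Cell cycle and stress genes followed, against the same 17.6% higher and 10.1% lower over all genes in the 10 kb table. Of 24 DNA replication genes tested in the 10 kb table, 10 rose and none fell, with RRM1 of ribonucleotide reductase (ratio 24.0 from 2 control reads, 95% counting interval 6.55 to 200) and CCNE2 (8.89 to 94.6 CPM) among them. Of 21 mitosis genes, 9 rose and 1 fell; BUB1B of the spindle checkpoint went from 6.48 to 72.3 CPM and the kinesin KIF11 from 28.5 to 160.0 CPM. Of 17 genes of the ATF4 and amino acid response, 10 rose and 1 fell, with a median of 1.54, among them TRIB3 (50.5 to 242 CPM), PSAT1 of serine synthesis (76.9 to 371 CPM) and DDIT3 (37.8 to 136 CPM). Of 13 SR splicing factors, 5 rose and none fell, including SRSF6 (148 to 580 CPM) and SRSF3 (30.6 to 170 CPM). Among 13 tested cleavage and polyadenylation factors, 5 rose and none fell: CSTF3, CPSF7, PCF11, WDR33 and CPSF2. With libraries scaled to the 4 tables, more genes of each of these lists rose and none fell.

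Some lists had fewer higher calls or more lower calls. Of 19 interferon response genes tested in the 10 kb table none rose and 2 fell, near the background of 10.1% lower, with a median of -0.23; scaled to the 4 tables, 5 rose and none fell. Replication-dependent histones, whose messages normally end at a stem-loop without a tail, had 8 of 51 higher and 15 lower, with a median of -0.48. HIST1H1E went from 304 to 82.7 CPM and HIST2H3A from 191 to 43.6 CPM, while HIST2H2BF went from 15.2 to 131 CPM. With libraries scaled to all 4 tables, 15 of these histones were higher and 5 lower, so the balance of that list turns on the scaling. Of 442 ZNF genes, 62 rose and 54 fell, near the 17.6% and 10.1% of all genes, with a median of 0.04; scaled to the 4 tables, 6 fell and far more rose.

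The genes that fell most in the 10 kb table were FCHO1, WISP1, LRP1, CCDC66, FILIP1L, BSG, VCAN and HIST1H2AD, all still below 0 when scaled to the 4 tables. FCHO1, an endocytic adaptor, had 174, 179 and 298 CPM in the controls and 2.19 to 10.7 CPM in the knockdown (log2 fold change -4.97 ± 0.39, or -4.09 in the other scaling). LRP1, an endocytic receptor, went from 99.1 to 5.58 CPM and CCDC66, a ciliary protein, from 135 to 7.35 CPM. BSG, the chaperone of lactate transporters, had 10.9, 124 and 10.9 CPM in the controls and 0 to 6.60 CPM in the knockdown, so its mean fold change rests largely on 1 control library.

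Where a 10 kb region also holds exons of another gene on the same strand, its reads need not come from the upstream gene. The table was made without the exons of annotated protein-coding genes, but in the Gencode 44 annotation lifted to GRCh37, 64% of the 10 kb regions that fell held an exon of another gene, against 24.3% of those that rose and 33.8% of those not called. In the regions without one, 1973 of 9582 rose (20.6%) and 537 fell (5.6%). In the regions with one, 633 of 5207 rose (12.2%) and 956 fell (18.4%). In the same annotation, some 10 kb regions held an exon of their own gene. These were 13.3% of the regions that rose, 16% of those that fell and 12.2% of those not called. The regions of MYC, CHST2 and PSMC2 were among them, so their reads may lie within a longer annotated form of the gene. The region of FCHO1 holds exons of B3GNT3, that of BSG exons of HCN2 and that of HIST1H2AD exons of the histone genes H3C4 and H4C4. The 10 kb region of LRP1 holds exons of NXPH4, whose own 3′ UTR fell from 234 to 86.7 CPM, and that of RAB40B holds exons of WDR45B, whose 3′ UTR fell from 475 to 159.6 CPM. The region of TTL, which fell, holds exons of POLR1B, whose 3′ UTR rose from 24.6 to 38.7 CPM. Which gene the downstream reads belonged to was not tested.

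**Figure D3:**
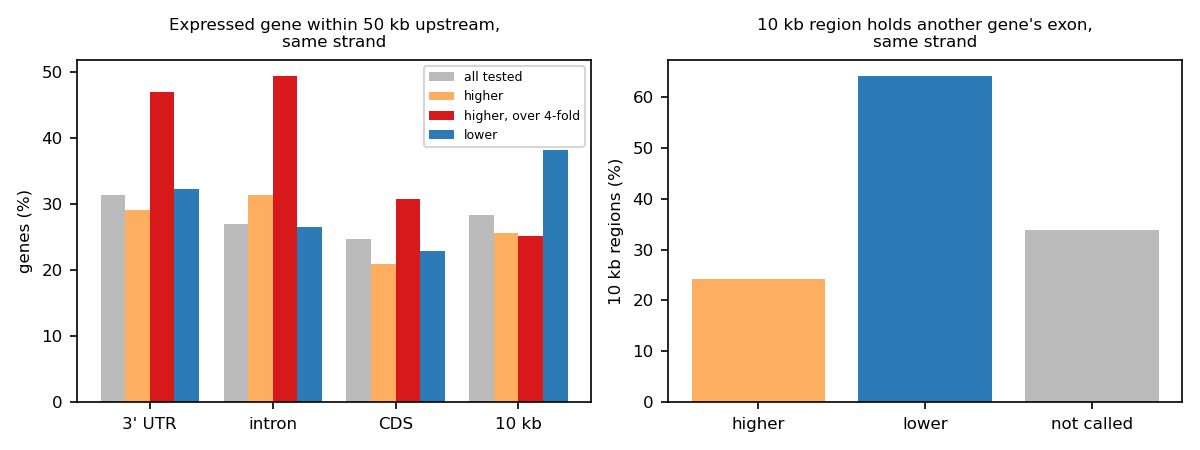
Left, percent of genes with an expressed gene (at least 10 CPM in the 3′ UTR table) ending within 50 kb upstream on the same strand, for all genes tested, genes that rose, genes that rose over 4-fold and genes that fell, in each of the 4 tables. Right, percent of 10 kb regions that hold an exon of another gene on the same strand; the bars are 24.3% for regions that rose, 64% for those that fell and 33.8% for those not called.

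Several glycolysis enzymes had a lower 3′ UTR level and a higher downstream level. GPI, which converts glucose 6-phosphate to fructose 6-phosphate, had 1264, 1303 and 1378 CPM in its 3′ UTR in the controls and 429.7 to 569.7 CPM in the knockdown libraries, a log2 fold change of -1.44 ± 0.13 (adjusted p = 3.1e-07). In its 10 kb region (chr19:34893361-34903360), which contains the GPI primer printed above, the controls had 58.1, 98.0 and 102 CPM and the knockdown libraries 482 to 738 CPM, a log2 fold change of 2.85 ± 0.30 (adjusted p = 3.7e-13). No knockdown library overlapped the controls in either table. The region also holds exons of PDCD2L, whose 3′ UTR rose from 40.3 to 59.6 CPM (adjusted p = 0.011), and which gene the counted reads belonged to was not tested here. In the paper, PCR from the last GPI exon to near the downstream site gave a product only after CPSF1 knockdown. The paper also reports that a morpholino masking that downstream site lowered the longer GPI transcripts in knockdown cells. The 10 kb share of GPI reads was 0.256%, 0.401% and 0.453% in the controls, 7.05%, 15.9% and 9.22% with CPSF1 sh1 and 16.7%, 15.5% and 15.8% with CPSF1 sh2.

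The later enzymes of the pathway differed in size. ALDOA, an aldolase, fell by 1.59 ± 0.14 in the 3′ UTR and rose by 1.45 ± 0.30 in the 10 kb table on the log2 scale, and its 10 kb share was 0.41% ± 0.202 in the controls and 6.67% ± 2.49 in the knockdown. PGK1, phosphoglycerate kinase, fell by 1.80 ± 0.16 in the 3′ UTR and rose by 1.58 ± 0.32 downstream, but its 10 kb share reached only 1.27% ± 0.691 from 0.0539% ± 0.0268. LDHA, lactate dehydrogenase A, fell by 0.85 ± 0.16 in the 3′ UTR and rose by 5.04 ± 0.43 downstream, from 12.2 to 389 CPM, with a share of 1.42% ± 0.581 in the knockdown. Its 10 kb region holds exons of LDHC, whose 3′ UTR was at 0 in the controls and at 4.85 CPM in the knockdown, and that of ALDOA holds exons of PPP4C. The changes in these 3 genes passed the test in both tables, and the downstream reads made up a small part of each gene's total.

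PFKM, the muscle form of phosphofructokinase, had a different starting point. Its 10 kb share was 28.5%, 21.4% and 26.1% in the controls already, and 46.2% to 64.9% in the knockdown, with no overlap. Its 3′ UTR reads (58.4 CPM in the controls, 49.9 CPM in the knockdown, adjusted p = 0.34) and its 10 kb reads (345 and 521 CPM, adjusted p = 0.069) did not pass the test, nor did the ratio (log2 0.81, adjusted p = 0.051). HK1, a hexokinase, and LDHB, the other lactate dehydrogenase, rose in the 10 kb table, from 17.0 to 268 CPM and from 9.91 to 117 CPM.

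Over the list of 17 glycolysis enzymes, 14 fell and none rose in the 3′ UTR table (15.2% of all 11277 genes tested fell and 15.2% rose). The list's median log2 fold change was -0.91, against 0.01 over all genes. Downstream, 6 of the 17 rose and 2 fell (17.6% and 10.1% of all genes), or 12 and 1 when scaled to the 4 tables. Relative to their 3′ UTR reads 10 rose downstream and none fell, against 21.2% and 6.77% of all genes. ENO2, the neuronal enolase, fell in both tables: from 64.8 to 13.7 CPM in the 3′ UTR and, downstream, by 1.41 ± 0.26 on the log2 scale. Across the 10110 genes tested in both tables, 341 (3.37%) fell in the 3′ UTR and rose in the 10 kb table and 113 (1.12%) did the reverse, while 205 (2.03%) fell in both and more, 4.88%, rose in both. Among those with the reverse pattern, KIAA0922 had a 10 kb share of 79.8% ± 9.43 in the controls and 41.4% ± 8.75 in the knockdown, and CDKL3, a kinase, 63.5% ± 3.88 and 25.3% ± 6.08; the 10 kb region of CDKL3 holds exons of PPP2CA.

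**Figure D4:**
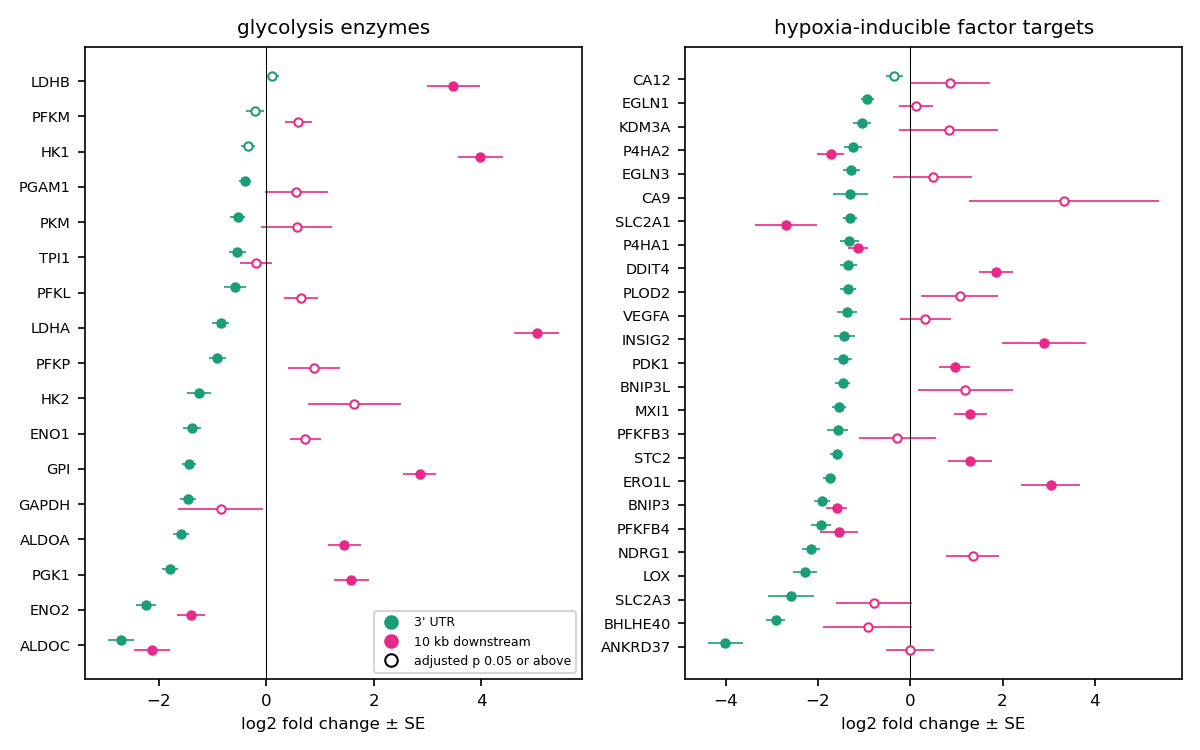
Log2 fold change ± SE (horizontal axis) in the 3′ UTR and 10 kb tables for the tested glycolysis enzymes and hypoxia-inducible factor targets, sorted by the 3′ UTR value; open points did not pass the adjusted threshold of 0.05. At the 3′ UTR, 14 of 17 glycolysis enzymes and 24 of 25 hypoxia-inducible factor targets were lower, while the 10 kb values lie on both sides of 0.

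**Figure D5:**
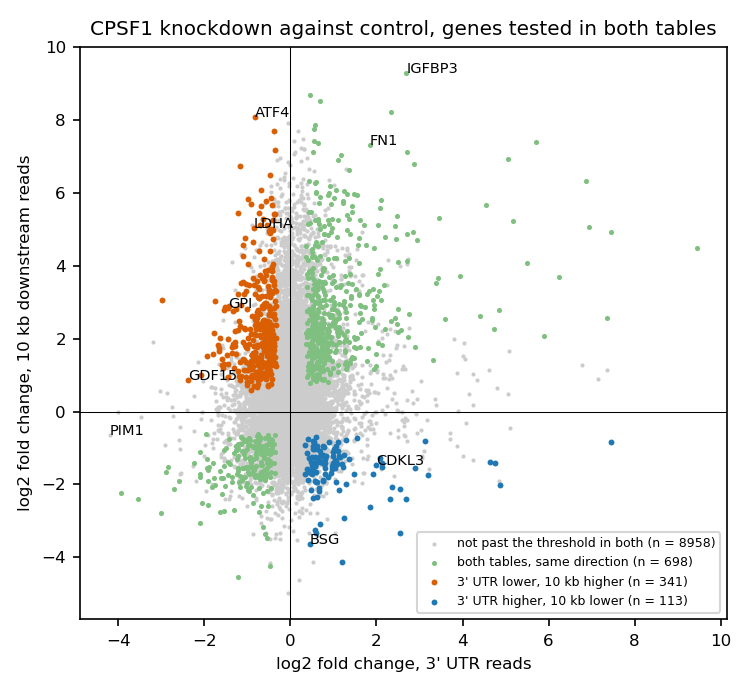
Log2 fold change in the 3′ UTR table (horizontal) against the 10 kb table (vertical) for the 10110 genes tested in both; both tables share the 9 libraries. The 341 genes that fell in the 3′ UTR and rose downstream are orange, the 113 with the reverse are blue, and the 698 that changed the same way in both are green.

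In the 3′ UTR table, which follows the ordinary ends of messages, 1719 of 11277 genes tested rose (15.2%) and 1715 fell (15.2%). The lower genes included nearly all tested targets of hypoxia-inducible factor: 24 of 25 fell and none rose, with a median log2 fold change of -1.46, the exception being CA12. ANKRD37 fell from 189.8 to 11.3 CPM, HILPDA, a lipid droplet protein, from 480.3 to 41.2 CPM, and BHLHE40, a clock repressor, from 158 to 20.6 CPM. NDRG1 fell from 2029 to 455 CPM, BNIP3, a mitophagy receptor, from 520.3 to 138 CPM and ERO1L, an oxidase of the endoplasmic reticulum, from 353 to 105 CPM. Downstream of these genes the list was split, with 6 of 26 higher and 6 lower, against 17.6% and 10.1% of all genes. Scaled to the 4 tables, 8 were higher and 4 lower. The BNIP3 10 kb reads fell from 4655 to 1537 CPM, and those of the prolyl hydroxylase subunit gene P4HA1 from 5891 to 2678 CPM, a log2 fold change of -1.14 that was -0.25 when scaled to the 4 tables.

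The gene with the lowest 3′ UTR fold change was PIM1, a serine/threonine kinase. It had 411, 263 and 349.5 CPM in the controls, 23.8, 13.7 and 22.8 CPM with CPSF1 sh1, and 14.9, 16.6 and 18.7 CPM with CPSF1 sh2. Both shRNAs gave levels over 10 times below every control (log2 fold change -4.20 ± 0.18, adjusted p = 1.7e-11). SOCS1, a suppressor of cytokine signalling, fell from 31.5 to 1.98 CPM. The stress gene GADD45B fell from 71.4 to 6.48 CPM, the kinase gene MAP3K8 from 26 to 3.16 CPM, the transcription factor gene MAFF from 30.0 to 3.63 CPM and C1orf63 from 115 to 12.5 CPM.

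Some stress and biosynthetic lists also leaned down in the 3′ UTR table, where 15.2% of all genes tested fell and 15.2% rose. Of 18 genes of the ATF4 and amino acid response, 13 fell and none rose, with a median of -0.77. PPP1R15A, a phosphatase subunit that ends the stress response, fell from 23.1 to 3.11 CPM and DDIT3, a transcription factor of the unfolded protein response, from 603 to 188 CPM. ATF4 itself fell by 0.83 ± 0.13 on the log2 scale while its downstream reads rose, as given above. GDF15, a stress cytokine listed as a p53 target, had 11880, 10870 and 9256 CPM in the controls and 1554 to 2706 CPM in the knockdown. The p53 target list itself was mixed: of 21 tested, 3 rose and 7 fell, with a median of 0.107. Of 18 endoplasmic reticulum chaperone genes, 1 rose and 3 fell, with a median of -0.0422. Of 9 oxidative stress genes 5 fell and none rose, including HMOX1, heme oxygenase (90.6 to 25.4 CPM), and NQO1 (272 to 124 CPM).

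Lipid synthesis genes that changed at the 3′ UTR were nearly all lower, against 15.2% lower and 15.2% higher over all genes tested. Of 23 cholesterol synthesis genes, 13 fell and none rose, with a median of -0.52; FDFT1, squalene synthase, fell by 0.98 ± 0.13, TM7SF2, a sterol reductase, by 1.12 ± 0.16 and INSIG1, which retains the sterol sensor, by 1.51 ± 0.24 on the log2 scale. Of 11 fatty acid synthesis genes 8 fell and 1 rose. SCD, the stearoyl desaturase, had 1064, 1042 and 1032 CPM in the controls and 262 to 553 CPM in the knockdown, and FASN, fatty acid synthase, fell from 633 to 315 CPM. ACACA, the carboxylase that feeds FASN, rose in its 10 kb region from 96.7 to 536 CPM.

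Prostate luminal genes were mixed at the 3′ UTR. KLK3 fell from 4597 ± 285 to 1544 ± 330.1 CPM, TMPRSS2, a surface protease, from 243 to 71.0 CPM and FOLH1, prostate-specific membrane antigen, from 1120 to 528 CPM. KLK2 fell less (368 to 282 CPM, adjusted p = 0.035), and the KRT8 keratin gene fell by 0.37 ± 0.13 on the log2 scale. Of 23 androgen response genes 9 fell and 1 rose, against 15.2% of all genes tested in each direction. The line checked against its markers as luminal: none of the 12 luminal markers was at 0, and their summed 3′ UTR level was 10001 to 10397 CPM in the controls and 6799 to 7817 CPM in the knockdown. These sums use library sizes without TMM factors, and KLK3 alone, at 4290 CPM in the controls and 1590 CPM in the knockdown on that scale, made up most of the difference. The basal markers summed to under 9 CPM in every library, at 3.29 to 6.47 CPM in the controls and 5.02 to 8.68 CPM in the knockdown, with KRT5 and KRT6A at 0 throughout. The neuroendocrine markers summed to 12.1 to 15.5 CPM in the controls and 8.14 to 21.6 CPM in the knockdown. The stromal and leukocyte markers summed to 41.4 to 47.4 CPM in the controls and 45.9 to 58.5 CPM in the knockdown. COL1A2, DCN, LUM and PTPRC were at 0 throughout. COL1A1 made up most of this sum, with means of 39.7 CPM in the controls and 33.3 CPM in the knockdown. It did not pass the edgeR test, while CD68 rose by 1.44 on the log2 scale.

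Cell cycle lists moved in opposite directions at the 3′ UTR, where 15.2% of all genes tested rose and 15.2% fell. Of 23 mitosis genes 13 fell and none rose, with a median of -0.49, among them CDC20, an activator of the anaphase-promoting complex (955 to 403 CPM), the checkpoint kinase gene TTK (58.1 to 26.5 CPM), CCNA2 (109 to 54.7 CPM) and CCNB2 (60.4 to 29.0 CPM). Of 25 DNA replication genes 13 rose and none fell, with a median of 0.45. MCM4, a subunit of the replicative helicase, had 38.1, 41.8 and 42.1 CPM in the controls and 73.0 to 91.5 CPM in the knockdown, without overlap. MCM6 rose from 17.7 to 43.2 CPM, MCM3 from 59.0 to 115 CPM and the loading factor gene CDC6 from 14.8 to 29.1 CPM. CDKN1B, a cyclin-dependent kinase inhibitor, fell from 152 to 47.3 CPM, while CDK6 rose from 1.62 to 10.2 CPM and CCND3 from 39.0 to 79.6 CPM.

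Other 3′ UTR increases were found in smaller groups. Of 6 tested UGT2B genes, whose enzymes conjugate androgens, 5 rose and none fell, with UGT2B15 going from 163 to 274 CPM, UGT2B11 from 452 to 679.7 CPM, UGT2B28 from 161 to 227 CPM and UGT2B7 from 9.23 to 17.8 CPM. These genes are near-identical copies of each other, so reads could have been split between them. Of the 14 cleavage and polyadenylation factors, 3 rose and 2 fell, near the 15.2% of all genes in each direction: WDR33, the partner of CPSF1 in reading the signal, from 28.4 to 69.1 CPM, PCF11 of the termination complex from 13.9 to 26.4 CPM and CSTF2 from 11.9 to 19.8 CPM, against CPSF1 and NUDT21, which fell by 0.40 ± 0.13 on the log2 scale. The chaperone genes HSPA8 and HSPH1 rose, from 1394 to 2915 and from 136 to 340.2 CPM, while the co-chaperone gene DNAJB1 fell from 134 to 58.8 CPM. Of 21 hnRNP genes 8 rose and 2 fell, led by HNRNPAB (105 to 208 CPM). Of 80 cytosolic ribosomal protein genes none rose and 22 fell, with a median of -0.28, for example RPS29 (1988 to 1038 CPM), RPS27 (2865 to 1500.0 CPM) and RPL31 (1313 to 791 CPM).

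The genes with the highest 3′ UTR fold changes were low or absent in the controls. ERICH2 had 0 control reads and 514 knockdown reads, 15.8 to 26.2 CPM in each of the 6 libraries, and was at least 93.0-fold higher. RGS4, a regulator of G-protein signalling, rose from 0.741 to 34.3 CPM, and RGS5 from 3.21 to 26.4 CPM. DDR2, a collagen receptor, rose from 5.17 to 67.6 CPM, ACTA2, smooth muscle actin, from 4.44 to 32.9 CPM, FERMT3 from 2.17 to 17.8 CPM, GLIPR1L2 from 2.83 to 29.1 CPM and C1orf162 from 2.97 to 22.6 CPM. Of the 209 genes that rose over 4-fold in this table, 98 (46.9%) had an expressed gene ending within 50 kb upstream on the same strand, against 31.3% of all genes tested. C1orf162 lies 11019 bases after ATP5F1, FERMT3 2135 bases after STIP1 and DDR2 31536 bases after UAP1. ERICH2, RGS4, RGS5, GLIPR1L2 and ACTA2 had no expressed gene ending within 50 kb upstream on the same strand.

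The intron table, which also takes reads in 5′ UTR exons, had 1624 of 12495 genes higher (13%) and 1351 lower (10.8%). The highest, of no common function, were ZBP1, an innate sensor of nucleic acids, HSPA2, a testis HSP70, the small GTPase gene ARL9, the protease gene TLL2, SLC45A2, a melanosome transporter, MGAM, an intestinal glucosidase, RP11-618P17.4 and CTD-2215E18.1. SLC45A2 had 10.6, 30.8 and 12.4 CPM in the controls and 384 to 507 CPM in the 6 knockdown libraries (log2 fold change 4.58 ± 0.26). TLL2 rose from 3.85 to 122 CPM and ARL9 from 2.26 to 76.9 CPM. ZBP1 had 2 control reads and a ratio of 98.6 (95% counting interval 27.1 to 818). None of these groups overlapped.

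Several of these genes lie shortly after another gene on the same strand. ZBP1 begins 27816 bases beyond PMEPA1, whose 10 kb reads rose from 14.0 to 244 CPM. HSPA2 begins 2215 bases beyond ZBTB1 (10 kb reads 1.21 to 69.4 CPM), ARL9 1670 bases beyond SRP72 (14.4 to 104 CPM), TLL2 4191 bases beyond TM9SF3 (1.42 to 16.0 CPM), and SLC45A2 1448 bases beyond AMACR, whose 3′ UTR was at 9.01 CPM in the controls and 8.68 CPM in the knockdown. MGAM, 116447 bases beyond TAS2R5, and CTD-2215E18.1, 51560 bases beyond LNPEP, had no counted gene ending within 50 kb upstream on the same strand. Whether intron reads came from transcripts of the upstream gene was not tested. Of the 371 genes that rose over 4-fold in introns, 183 (49.3%) had an expressed gene ending within 50 kb upstream on the same strand, against 26.9% of all genes tested, 31.3% of all that rose and 25.9% of the genes not called whose control level was below 5 CPM. For CDS the figures were 30.7% of those over 4-fold and 24.7% of all. RP11-618P17.4 overlaps GPI itself: 6706 bases of the GPI 10 kb region lie in it, and its intron reads were 7, 12 and 13 in the controls, 194, 345 and 243 with CPSF1 sh1, and 215, 376 and 323 with CPSF1 sh2. GPI had 16, 23 and 28, then 205, 352 and 267, then 233, 392 and 336 reads in its 10 kb region in the same libraries. The changes of RP11-618P17.4 and of the GPI 10 kb region are therefore not independent.

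The intron reads that fell most included genes that also fell at the 3′ UTR. BHLHE40 introns went from 113 to 4.23 CPM, ANKRD37 from 40.9 to 2.16 CPM and VEGFA, the angiogenic growth factor, from 67.1 to 5.85 CPM, and 13 of 23 hypoxia-inducible factor targets fell against 1 that rose. SLC38A2, an amino acid transporter, had 257, 181 and 268 CPM in the controls and 26.4 to 42.4 CPM in the knockdown (log2 fold change -2.81 ± 0.17). INSIG1 fell from 25.4 to 4.08 CPM, the co-chaperone gene BAG3 from 30.0 to 4.74 CPM, the ascorbate transporter gene SLC23A1 from 76.7 to 5.44 CPM and GPR146 from 32.8 to 3.48 CPM. Of 19 cholesterol synthesis genes 9 fell and 1 rose, of 20 mitosis genes 10 fell and none rose, and of 20 tRNA synthetase genes 10 fell and none rose, while 6 of 22 DNA replication genes rose and none fell. Relative to 3′ UTR reads, intron reads rose for 477 of 9133 genes (5.22%) and fell for 814 (8.91%). The UGT2B genes were divided, with 5 of 6 higher in the 3′ UTR and 4 of 7 lower in introns. A group of MTRNR2L genes, nuclear copies of mitochondrial sequence, took 16.4% to 32.8% of the intron reads of a library.

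The CDS table had the smallest share of genes called, with 369 of 4912 genes higher (7.51%) and 245 lower (4.99%). In 10.1% of its genes all 6 knockdown libraries were above all 3 controls, and in 7.06% they were below. The highest were NEB and TTN, giant proteins of the muscle sarcomere, MYH15, a myosin heavy chain, WDR78, an axonemal dynein chain, CCDC175, CCDC173, CCDC30 and AL589739.1. NEB had 2.32, 5.35 and 6.64 CPM in the controls and 137 to 222 CPM in the knockdown, without overlap (log2 fold change 5.14 ± 0.32). WDR78 had no control read and was at least 21.6-fold higher, and CCDC175 at least 19.6-fold. TTN borders CCDC141 on the same strand, and their distance was not resolved, since 3′ UTRs were extended by 300 bases. CCDC175 lies 19146 bases beyond RTN1 and MYH15 20547 bases beyond KIAA1524, also on the same strand. The 10 kb reads of CCDC141, RTN1 and KIAA1524 did not pass the test. At the 3′ UTR, RTN1 rose from 3.86 to 18.2 CPM (edgeR adjusted p = 0.0004) and KIAA1524 from 77.1 to 116.5 CPM (edgeR adjusted p = 0.036). CCDC141 was not among the genes tested there.

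The genes whose CDS reads fell most were HERPUD1, TMTC2, CREB3L2, NUPR1, FAM13A, IDI1, TRIB2 and PLOD2. HERPUD1, which takes part in degradation at the endoplasmic reticulum, had 34.8, 17.8 and 39.1 CPM in the controls and 0 to 7.29 CPM in the knockdown. CREB3L2, a transcription factor activated there, fell from 31.2 to 3.64 CPM and the stress regulator gene NUPR1 from 26.1 to 3.38 CPM. IDI1, isopentenyl diphosphate isomerase, fell from 124 to 25.6 CPM, FAM13A from 334 to 64.0 CPM, TMTC2 from 30.5 to 3.40 CPM, the pseudokinase gene TRIB2 from 22.2 to 4.77 CPM and the collagen hydroxylase gene PLOD2 from 75.0 to 18.2 CPM. Of 9 hypoxia-inducible factor targets tested, 7 fell and none rose, with a median of -1.58, against 4.99% lower and 7.51% higher over all genes. Few genes moved their CDS reads relative to their 3′ UTR reads: 12 of 4590 rose (0.261%) and 24 fell (0.523%).

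LNCaP95 differed from the other lines in a minority of genes. Puromycin dose and medium differed along with the line, so their parts cannot be told apart. In a fit of all 27 libraries, the 10 kb effect in LNCaP95 was above the mean effect of LNCaP and 22Rv1 for 324 of 16048 genes (2.02%) and below it for 292 (1.82%). For the 3′ UTR, 608 of 12476 genes were above (4.87%) and 612 below (4.91%). GPI was among them: its 3′ UTR log2 fold change was -1.45 in LNCaP95, -0.79 in LNCaP and -0.10 in 22Rv1 (difference -1.0 ± 0.12, adjusted p = 1.0e-06). In the 10 kb table it was 2.92, 1.36 and 1.30 (difference 1.59 ± 0.34, adjusted p = 0.0007). PIM1 stood apart more, with -4.20 in LNCaP95, -0.85 in LNCaP and -0.50 in 22Rv1 at the 3′ UTR. SYT4, a synaptotagmin, rose by 2.09 at the 3′ UTR and 5.89 downstream in LNCaP95.

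Library CPSF1 sh1 BR2 was the highest of the 3 sh1 libraries for 55.9% of the genes called higher in the 10 kb table, 56.1% in the 3′ UTR, 66.7% in the CDS and 73.8% in the intron table. Without it, 2447 genes rose and 1439 fell in the 10 kb table, 1698 and 1692 in the 3′ UTR, 1556 and 1329 in introns, and 419 and 322 in the CDS. Its part in single genes such as IGFBP3 was not tested beyond these counts.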

How the data were processed

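The authors removed adapters and poly(A) tails from the PAC-seq reads, mapped them to hg19 with HISAT2 2.1.0 and counted the 3′-most base of each read, by strand, with featureCounts of Subread (2.0.3 in the submitters' processing notes) against Ensembl GRCh37 protein-coding genes. The deposited values are raw counts per gene in 4 regions; introns were genes without CDS and 3′ UTR, and the 10 kb regions left out same-strand exons. From these counts, genes with a mean above 2 CPM were tested in each table with edgeR 4.0.16 in R 4.3.3 (TMM factors, quasi-likelihood F-test, 3 control against 6 knockdown libraries, Benjamini-Hochberg threshold 0.05). Ratios were the interaction of region and knockdown, and region shares were compared by exact permutation. Named genes were the 8 highest and 8 lowest called genes per table with a mean of at least 10 CPM, one sign with each shRNA and no overlap between groups, up to 4 members per list, the study’s primer genes, and the 5 extreme differences from other lines; FN1, MYC, CA12 and other names outside this were chosen after their values were seen. Members and lists were chosen with earlier results of these data known. Genes at 0 in the controls were set against a floor of 3 reads over the 3 controls together; floors and 95% intervals cover counting error only. Alternatives included DESeq2 1.42.0, other filters, other scalings and leaving out each library. No same-numbered libraries could be treated as pairs: their deviations correlated between -0.23 and 0.19 in the 3′ UTR table. Neighbouring genes and their distances came from the regions of the counted protein-coding genes, so other genes were not considered. Exons inside the 10 kb regions came from Gencode 44 lifted to GRCh37, with renamed genes matched by RefSeq synonyms. Scripts were tested on simulated data. Some genes are not reported here.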

Additional observations from a re-analysis of the deposited data

Results flagged for a closer look

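Among 194 sets of 6 knockdown libraries examined, 8 had 1 library far from the others; chance gives about 1 in 20. CPSF1 sh1 BR1 was the far library for TRIB3 at the 3′ UTR (114.1 CPM), HIST1H1E (110.5 CPM) and ITGB4 (7.056 CPM) in the 10 kb table, ANKRD37 in introns (6.584 CPM) and PLOD2 in the CDS (39.27 CPM). The others were HSP90B1 downstream in CPSF1 sh2 BR3 (674.1 CPM), WISP1 downstream in CPSF1 sh1 BR3 (8.776 CPM) and HERPUD1 in the CDS in CPSF1 sh2 BR2 (7.286 CPM).

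The effect of knockdown in LNCaP95 differed from the mean of LNCaP and 22Rv1, by the test of that difference in edgeR over all genes. In the 10 kb table the differences on the log2 scale were 8.614 for CHST2, 6.926 for SESTD1, 6.705 for TYMS, 6.684 for AC012414.1 and 6.631 for FAF1. Genes lower in LNCaP95 were WISP1 (-5.857), BSG (-5.835), CCDC66 (-5.377), SMIM14 (-5.364) and ZMYND8 (-5.011). CHST2, SESTD1, TYMS, AC012414.1 and FAF1 had no control read in LNCaP95, so the size of their fitted differences depends on the prior count and is no bound. TYMS was also above 0 in the other lines, at 1.75 in LNCaP and 2.24 in 22Rv1.

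In the 3′ UTR table the differences were 3.681 for NR2F1, 2.86 for S1PR3, 2.245 for WDR52, 2.214 for ST7L and 2.173 for SYT4. Those below were -5.479 for CRYBB2, -4.436 for SOCS1, -3.529 for PIM1, -3.473 for FUT3 and -3.282 for ANKRD37. SOCS1, which fell in LNCaP95, had a log2 fold change of -0.66 in LNCaP and 1.63 in 22Rv1.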

How the results depend on the processing

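Of 232 single-gene values, 210 kept their direction and their side of the threshold under every alternative in which they were tested; some alternatives do not cover the ratios or the differences from the other lines, and the filter on every library kept 150 of the values. Without TMM factors the 3′ UTR calls were 2598 higher and 1076 lower, and 864 genes were lower in the 10 kb table. With libraries scaled to all 4 tables, 5259 and 241 genes were called in the 10 kb table, 4728 and 140 by the 10 kb ratio, 447 lower by the intron ratio, 9 lower by the CDS ratio, and 648 and 119 in the 10 kb difference from the other lines. With a filter of 2 CPM in every library, 1483 genes were higher and 1520 lower in the 10 kb table (49.4% of calls higher, against 63.6%), with 1346 higher by its ratio and 20 by the CDS ratio. CPSF1 sh1 alone gave 825 and 836 calls at the 3′ UTR, 951 and 626 in introns, 166 and 106 in the CDS, 1631 and 759 in the 10 kb table, 1262 and 286 by the 10 kb ratio, 198 and 219 by the intron ratio, and 1 and 0 by the CDS ratio, where CPSF1 sh2 alone gave 5 and 12. With as many libraries, CPSF1 sh2 alone gave 1744 and 1825 calls at the 3′ UTR, 1570 and 1306 in introns, 403 and 323 in the CDS and 2335 and 1300 in the 10 kb table. In 10 kb regions without an exon of another gene, an alternative chosen after seeing the data, 537 of 9582 genes were lower (5.6%, against 10.1% of all). The cause of these changes was not tested.

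Leaving out 1 library gave 1115 to 1789 genes higher and 1149 to 1833 lower at the 3′ UTR, 1168 to 1683 and 897 to 1414 in introns, 229 to 419 and 160 to 322 in the CDS, and 2145 to 2661 and 1173 to 1496 in the 10 kb table. It gave 1745 to 2206 and 529 to 689 by the 10 kb ratio, 310 to 472 and 406 to 820 by the intron ratio, and 3 to 11 and 4 to 22 by the CDS ratio. For the difference from the other lines it gave 184 to 374 and 185 to 351 in the 10 kb table and 366 to 605 and 404 to 729 at the 3′ UTR. CTRL sh BR1 moved counts by over 1.5 times at the 3′ UTR (1115 higher without it) and in the intron and CDS tables (897 and 160 lower), and without CTRL sh BR3 the CDS calls were 243 and 177. The share differences ranged from -5.052 to -2.867 percentage points for the 3′ UTR, 0.6465 to 1.886 for the CDS and 2.169 to 2.569 for the 10 kb regions (adjusted exact permutation p 0.0714 to 0.143, with fewer splits possible). The intron share ranged from -0.5631 to 1.042 and turned negative without CTRL sh BR1 (-0.5593), CTRL sh BR2 (-0.1512), CPSF1 sh1 BR1 (-0.2311) or CPSF1 sh2 BR1 (-0.5631). The value of MYC in 3UTR genes, which did not pass the test, was -0.04176 with summed scaling and -0.2192 with CPSF1 sh2 alone; leaving out 1 library it ranged from -0.1193 to 0.3161 and was negative without CTRL sh BR3 (-0.08983) or CPSF1 sh1 BR2 (-0.1193). With the replicate number as a block, the 10 kb share difference stayed at 2.387 percentage points (adjusted exact permutation p = 0.148), and the calls were 1670 and 1613 at the 3′ UTR, 1635 and 1331 in introns, 338 and 228 in the CDS and 2529 and 1340 in the 10 kb table. The 10 kb table held the fewest reads, so genes with few control reads there have wide ratios.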
